A study of Mus musculus with 24 samples.

Results

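The fatty acid binding protein genes Fabp7, Fabp3, Fabp4, Fabp5 and Fabp12 were followed through RNA sequencing of the neural retina and the eye cup of mice. They were taken by name from the deposited table, 5 of its 56748 genes, and all 5 passed the filter on low counts in each of the 12 comparisons below. The genes were chosen by the measured level of Fabp7, which was high in the retinas of PRDM13-OE mice given dox, and its paralogs were taken with it. The values of the members in the comparisons that use those retinas are therefore given as a description, without a test.

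PRDM13-OE mice were heterozygous for a knock-in at Rosa26 on the C57BL/6J background, in which the TRE3G promoter drove 3xHA-tagged human PRDM13 and the ubiquitous EF-1α promoter drove the reverse tetracycline transactivator. From P28, postnatal day 28, part of the PRDM13-OE mice and part of their wildtype littermates drank dox (doxycycline) at 2 mg/ml for 72 hours, and the rest stayed untreated. The dox water also held 10% sucrose. Each of the 4 groups held 3 mice, the retina and the eye cup came from the same 12 mice, and the eye cup held the retinal pigment epithelium (RPE), choroid and sclera, which gave 24 libraries. Libraries had between 15825059 and 24908314 reads counted on genes.

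The labelled tissues were checked against marker lists. The summed level of 10 rod genes was between 51555 and 75001 CPM (counts relative to the library total, after TMM scaling) in the 12 retinas and between 3247 and 52119 CPM in the 12 eye cups, so every eye cup held rod RNA. The 9 RPE genes summed to between 71.5 and 393 CPM in the retinas and to between 8115 and 56643 CPM in the eye cups. Lens genes were uneven. In the retinas of wildtype mice with dox, the 12 lens genes summed to 10681, 4376 and 95.5 CPM, against at most 777 CPM in each of the 9 other retinas. Blood genes set the PRDM13-OE mice with dox apart in both tissues. The 5 blood genes summed to between 0.669 and 1.12 CPM in their retinas against between 20.4 and 73.4 CPM in the 9 others, and to between 12.8 and 15.6 CPM in their eye cups against between 252.4 and 3755 CPM. Their retinas were also lowest, without overlap, in the 9 cone genes (703 to 767 against 1184 to 1413 CPM), the 12 endothelial genes (240.2 to 274 against 367 to 467 CPM), the 5 horizontal cell genes (174 to 181 against 233 to 289 CPM), the 8 amacrine cell genes (1528 to 1542 against 1622 to 1821 CPM) and the 8 Schwann cell genes (42.3 to 49.2 against 55.4 to 85.3 CPM). The rod genes and the radial glia and progenitor genes were lowest there too, without overlap, and the astrocyte genes highest, with values below. The part of these differences in the results below was not tested. In bulk tissue, fewer cells of a type and less RNA per cell cannot be told apart.

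Fatty acid binding proteins are small cytoplasmic proteins that hold a long-chain fatty acid or a related lipid inside a barrel and carry it between membranes, enzymes and nuclear receptors. Family members are known by where they are abundant: Fabp3 in heart and neurons, Fabp4 in adipocytes and macrophages, Fabp5 in epidermis and other epithelia, and Fabp12 in retina and testis. Fabp7, or brain lipid binding protein, prefers polyunsaturated fatty acids such as docosahexaenoic acid, which is enriched in photoreceptor membranes, and is a classical marker of radial glia in the developing nervous system.

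In GRCm39, the build of the files, Fabp7 (ENSMUSG00000019874) is the member on chromosome 10, from 57660977 to 57664546 on the plus strand, with 3 exons in its canonical transcript. Fabp3 (ENSMUSG00000028773) lies on chromosome 4 from 130202388 to 130209256, plus strand, with 4 exons, and overlaps Zcchc17 on the other strand by 81 bases. Fabp5 (ENSMUSG00000027533, 10077608 to 10081667, plus strand, 4 exons), Fabp4 (ENSMUSG00000062515, 10269148 to 10273636, minus strand, 4 exons) and Fabp12 (ENSMUSG00000027530, 10309269 to 10366243, minus strand, 5 exons) share a cluster of 288636 bases on chromosome 3. Whether strand was used in counting is not given in the sources used here, so reads of Fabp3 and Zcchc17 in their overlap cannot be told apart. The annotated copies of the members took few reads, with at most 8 counts for Fabp3-ps1 and 1 count for Fabp5l2 in any library.

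The bases upstream of Fabp7 are shown because this is the member that was switched on. They are taken from the RefSeq promoter table (GRCm38.p6), which held 2 of the 5 members, and matched once on chromosome 10 of GRCm39, at chr10:57660769-57660955 on the plus strand. The window of 187 bases ends just before the earliest start annotated for the gene in the GRCm39 annotation used here, which lies 21 bases before the start in the deposited table. Capitals mark the letters found in a search of both strands for 7 short motifs.
Fabp7 upstream: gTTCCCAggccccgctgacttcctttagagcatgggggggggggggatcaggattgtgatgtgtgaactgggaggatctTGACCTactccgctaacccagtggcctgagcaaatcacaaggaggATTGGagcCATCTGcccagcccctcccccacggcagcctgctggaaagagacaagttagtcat
The capitals are, from 5′ to 3′, the RBPJ core TGGGAA on the other strand, the nuclear receptor element AGGTCA on the other strand, CCAAT on the other strand and an E-box, CANNTG, on the strand shown. None of these 4 matches overlapped another. The letters of the TATA box TATAAA, of the nuclear factor I core TTGGC and of the CRX core TAATCC were not in this window. Among 32851 windows of the same length in the table, 16.8% held TGGGAA, 10.7% AGGTCA, 26.2% CCAAT and 56.8% CANNTG. These matches are a description of the letters.

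Fabp7 was at the edge of detection in every retina except those of PRDM13-OE mice with dox. In PRDM13-OE mice with dox, its level was 98.5, 95.8 and 89.4 CPM in the 3 retinas, from 1767, 1849 and 1763 counts. In untreated PRDM13-OE mice it was 0.752, 1.27 and 0.696 CPM. In wildtype mice it was 0.434, 0.607 and 1.39 CPM with dox and 1.70, 0.670 and 1.21 CPM without. These 3 retinas, called the induced retinas below, lay close together and far above the 9 other retinas, which had between 8 and 37 counts and did not separate by genotype or by dox.

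**Figure D1:**
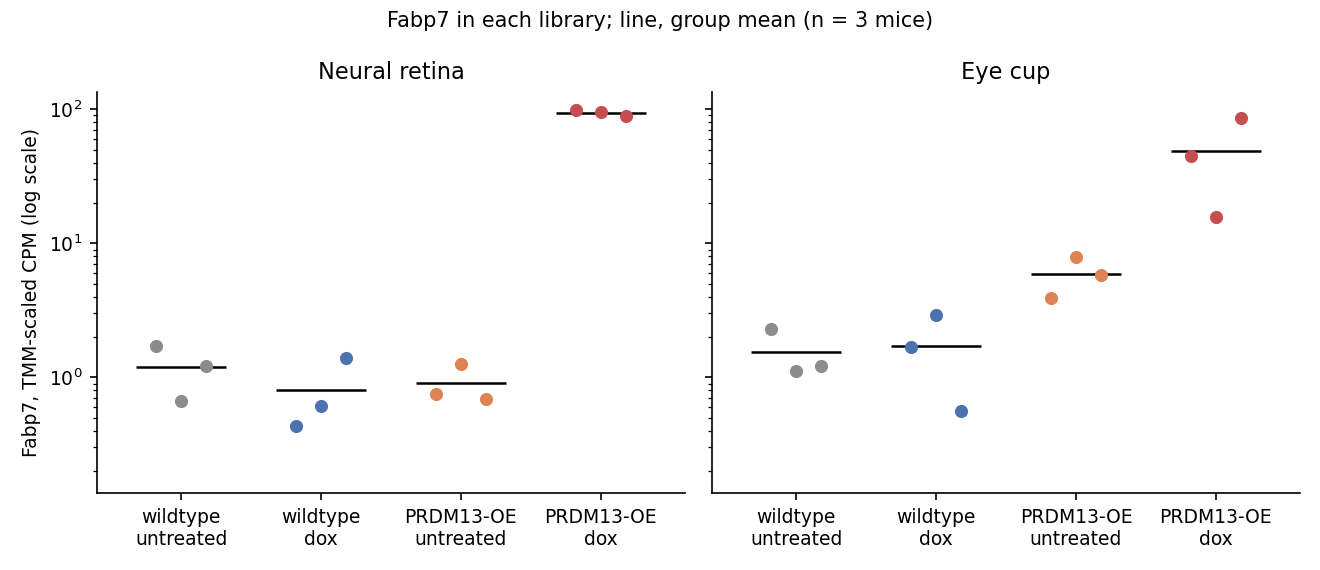
TMM-scaled CPM of Fabp7 on a log scale in each of the 12 retinas (left) and 12 eye cups (right), by genotype and dox. Points are mice and lines are group means of 3 mice. The induced retinas lie between 89.4 and 98.5 CPM and the other retinas between 0.434 and 1.70 CPM, while the eye cups of PRDM13-OE mice with dox spread from 15.9 to 86.2 CPM.

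The mean was 94.6 ± 4.66 CPM (SD, n = 3) in PRDM13-OE retinas with dox and 0.811 ± 0.511 CPM (SD, n = 3) in wildtype retinas with dox, which gave a log2-fold change of 6.86 (SE 0.18). Against untreated PRDM13-OE retinas (0.904 ± 0.314 CPM, SD, n = 3) the log2-fold change was 6.69 (SE 0.14), and the interaction of genotype and dox over the 12 retinas was 7.27 (SE 0.46) on the log2 scale. All 3 of these estimates share the same induced retinas. No test of the members is given for these comparisons. Here and below, a called gene is one whose edgeR quasi-likelihood test had an adjusted p under 0.05 together with a fold beyond 1 on the log2 scale, in either direction.

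Where the induced retinas took no part, Fabp7 was tested. Dox water, which also held sucrose, gave a log2-fold change of -0.57 in wildtype retinas (SE 0.47, 95% interval from -1.59 to 0.45, edgeR adjusted p = 0.766). The untreated PRDM13-OE retinas differed from the untreated wildtype retinas by -0.40 (SE 0.40, 95% interval from -1.27 to 0.48, edgeR adjusted p = 0.995). At 8 to 37 counts, both intervals included decreases beyond 1 on the log2 scale and left out increases above 0.48.

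The other 4 members differed far less than Fabp7 between the induced retinas and the others. Beside wildtype with dox, the libraries of the groups did not overlap for 4 of the 5 members, as for 31.8% of all genes. Beside untreated PRDM13-OE, 3 of 5 did not overlap, as for 20.8% of all genes. Since these retinas led to the choice of the genes, the counts are a description and nothing is read from them.

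Fabp12, the member with the highest deposited FPKM in control retinas, was lower in the induced retinas. It stood at 56.8, 54.7 and 65.9 CPM in PRDM13-OE mice with dox and at 94.5, 111 and 90.1 CPM in untreated PRDM13-OE mice. Wildtype retinas had 97.6, 95.3 and 93.9 CPM with dox and 105, 98.3 and 89.9 CPM without. All 3 induced retinas were below all 9 others. The log2-fold change was -0.70 (SE 0.07) against wildtype with dox and -0.74 (SE 0.09) against untreated PRDM13-OE. The rod list moved with it, with sums of 51555 to 57594 CPM in the induced retinas and 68692 to 75001 CPM in the 9 others. Per 1000 CPM of the rod list, Fabp12 was 1.10 ± 0.0523 CPM (SD, n = 3) in the induced retinas and 1.36 ± 0.0161 CPM (SD, n = 3) in wildtype retinas with dox, so that it was lower relative to the rod genes too, and untreated retinas lay between 1.24 and 1.60 CPM. What share of the difference went with rod RNA was not tested.

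Fabp3 differed little. It was 14.2, 15.3 and 15.3 CPM in the induced retinas, below each of the 9 other retinas, which lay between 17.1 and 20.2 CPM. The log2-fold change was -0.31 (SE 0.09) against wildtype with dox and -0.31 (SE 0.10) against untreated PRDM13-OE. Fabp4 was near the floor of detection, with 9 to 40 counts in the 12 retinas. Its level was 1.11, 2.07 and 1.32 CPM in the induced retinas and 1.03, 0.962 and 1.00 CPM in wildtype with dox, which differed by 0.58 (SE 0.31) on the log2 scale.

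Fabp5 was highest in the wildtype retinas with dox that held the most lens RNA. Its level was 21.0, 19.6 and 16.8 CPM in the induced retinas, 19.6, 16.3 and 20.7 CPM in untreated PRDM13-OE, 30.3, 22.1 and 27.0 CPM in untreated wildtype, and 92.5, 36.9 and 20.9 CPM in wildtype with dox. The wildtype retinas at 92.5 and 36.9 CPM were those with 10681 and 4376 CPM of lens genes, and the third overlapped the induced retinas. The log2-fold change against wildtype with dox was -1.39 (SE 0.39). It was -0.61 without the retina of wildtype mouse 1, and it turned to 0.65 (SE 0.38) with the lens level as a covariate, chosen after seeing the data. The lens levels of these groups did not overlap, so lens level and genotype cannot be told apart in that fit. Against untreated PRDM13-OE, whose retinas had at most 100.2 CPM of lens genes, Fabp5 differed by 0.02 (SE 0.11).

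**Figure D2:**
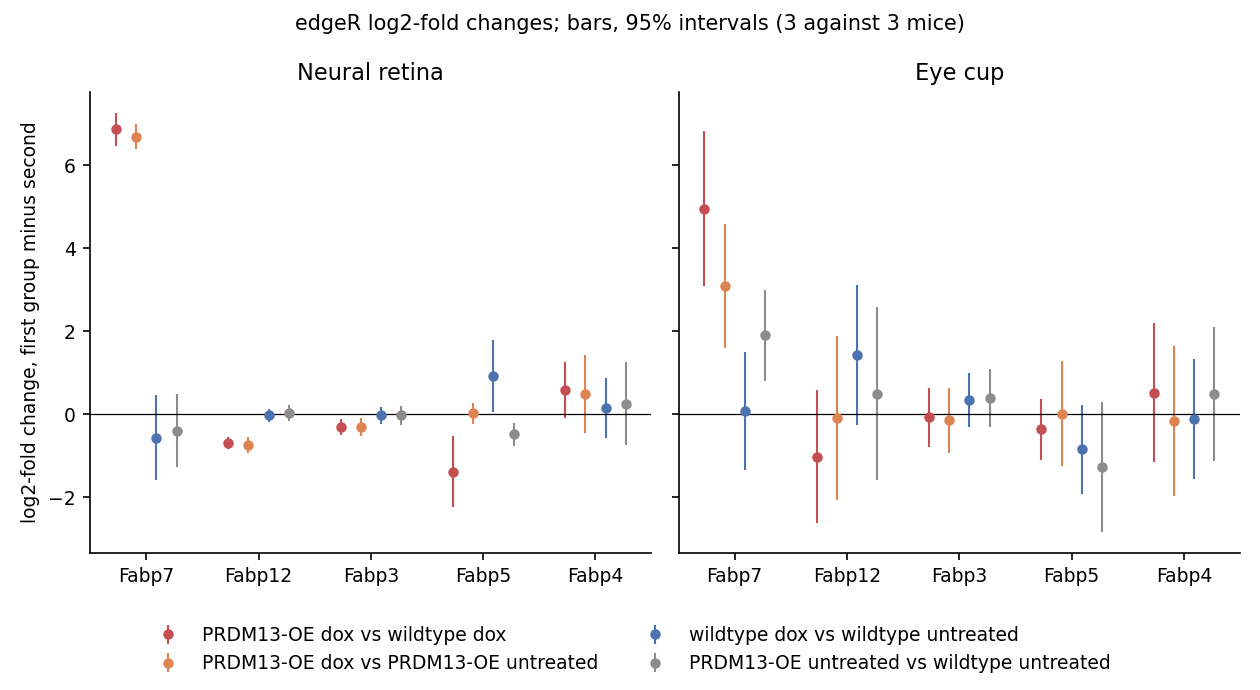
edgeR log2-fold changes of the 5 genes in 4 comparisons of 3 against 3 mice in the neural retina (left) and the eye cup (right). Points are estimates and bars are 95% intervals. Fabp7 stands at 6.86 and 6.69 in the induced retinas, and the other genes lie between -1.39 and 0.92 in the retina. Most intervals are wider in the eye cup.

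Among the retinas that the choice of genes did not use, 0 of 5 members were called for dox in wildtype mice, where edgeR called 0.00485% of 20631 genes, and 0 of 5 had groups without overlap, beside 14.4% of all genes. Only Fabp5 had an unadjusted p under 0.05 (log2-fold change 0.92, SE 0.39, edgeR adjusted p = 0.504, and 0.06 with the lens covariate), beside 9.32% of all genes. DESeq2 also called 0 of 5 members, where it called 0.16% of 16225 genes. For genotype in untreated mice, edgeR and DESeq2 called 0 of 5 members, and edgeR called 0% of 20668 genes and DESeq2 0.00968% of 20659. The 3 untreated PRDM13-OE retinas lay below the 3 untreated wildtype retinas for Fabp5, a difference of -0.48 on the log2 scale (SE 0.13, unadjusted p = 0.0026, edgeR adjusted p = 0.995). Groups did not overlap for 1 of 5 members, and for 9.62% of all genes. The lens genes did not overlap between these retinas either, at 66.7, 5.56 and 100.2 CPM in PRDM13-OE and 777, 151 and 245 CPM in wildtype, and with the lens covariate the difference of Fabp5 was -0.14 (SE 0.15). Lens level and genotype cannot be told apart in that fit either. Fabp12 differed by -0.03 (95% interval from -0.18 to 0.12) for dox in wildtype and by 0.02 (95% interval from -0.18 to 0.21) for genotype without dox.

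Levels were compared between genes by the deposited FPKM (reads scaled to gene length and library total). In untreated wildtype retinas the order was Fabp12 at 34.0 ± 2.69 FPKM, Fabp3 at 22.3 ± 2.21, Fabp5 at 7.20 ± 1.21, Fabp7 at 0.930 ± 0.409 and Fabp4 at 0.196 ± 0.0593 FPKM (SD, n = 3), and libraries of neighbours in this order did not overlap. In the induced retinas Fabp7 came first at 72.5 ± 3.56 FPKM, followed by Fabp12 at 20.3 ± 2.06, Fabp3 at 17.4 ± 0.729, Fabp5 at 5.14 ± 0.572 and Fabp4 at 0.320 ± 0.107 FPKM (SD, n = 3). Fabp7 thereby took 62.7% of the summed FPKM of the 5 genes, against between 0.909% and 1.44% in the other retina groups, and the sum was 115.6 FPKM against between 62.5 and 70.7. The place of Fabp5 depends on its length. The deposited length is 3567 bases and the canonical transcript 993 bases. With the latter, the mean of Fabp5 stood above that of Fabp3 in the induced and the untreated wildtype retinas, where libraries overlapped. In wildtype retinas with dox its mean stood above Fabp3 and Fabp12, but not in each mouse. There Fabp5 was 93.2, 37.2 and 21.0 CPM per kilobase in mice 1 to 3, Fabp12 41.4, 40.4 and 39.8, and Fabp3 23.0, 21.0 and 23.5. Fabp7 stayed first in the induced retinas with both lengths.

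**Figure D3:**
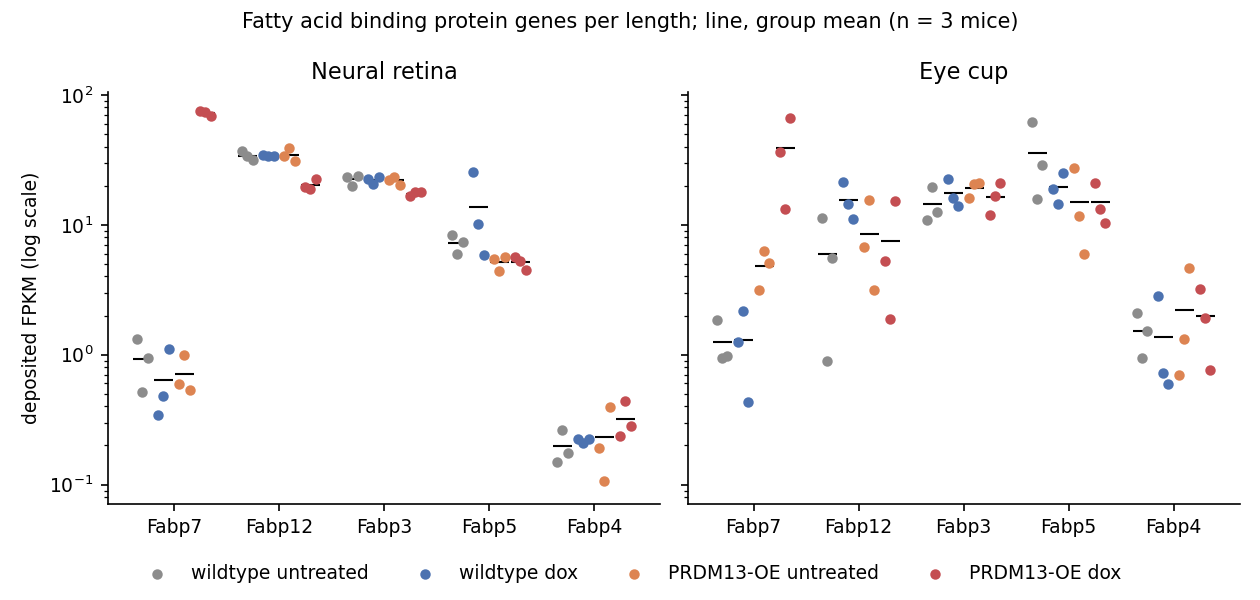
Deposited FPKM of the 5 genes on a log scale in the neural retina (left) and the eye cup (right). Points are mice, coloured by genotype and dox, and lines are means of 3 mice. In the retina Fabp7 moves from the level of the lower genes to the top in PRDM13-OE mice with dox, and the eye cups spread more than the retinas.

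Without dox and without the transgene, the tissues themselves differed. Of the 5 members, 3 were called between untreated wildtype retina and eye cup, where 45.2% of 21979 genes were called, and 4 did not overlap, as for 71.4% of all genes. Fabp12 was higher in the retina, at 105, 98.3 and 89.9 CPM against 31.4, 2.35 and 15.4 CPM in the eye cups of the same mice (log2-fold change 2.50, SE 0.70, edgeR adjusted p = 0.0164, from 0.000787 to 0.0692 when 1 library was left out, the highest without the eye cup of mouse 3). Fabp5 was lower in the retina, at 30.3, 22.1 and 27.0 CPM against 219, 53.1 and 102 CPM (log2-fold change -2.30, SE 0.46, edgeR adjusted p = 0.00358). Fabp4 was lower in the retina too, at 0.689, 1.24 and 0.810 CPM against 9.27, 4.05 and 6.79 CPM (log2-fold change -2.96, SE 0.39, edgeR adjusted p = 0.00048). Fabp3 was 0.64 (SE 0.23, edgeR adjusted p = 0.0453) higher in the retina, within the cutoff, and its adjusted p was 0.0630 with the mouse as a block. Fabp7 was scarce in both, at 1.70, 0.670 and 1.21 CPM in retina and 2.29, 1.11 and 1.21 CPM in eye cup (log2-fold change -0.44, 95% interval from -1.55 to 0.67, edgeR adjusted p = 0.448). Among markers of other cell types, 10 surface epithelium genes summed to 16007 to 18248 CPM in these eye cups and 6.60 to 8.73 CPM in these retinas. The 10 adipocyte genes summed to 42.0 to 49.0 CPM in the eye cups and 13.4 to 14.2 CPM in the retinas, where Adipoq, Cidec, Cfd, Pck1, Lep and Adrb3 had at most 3 counts. The 10 microglia and macrophage genes summed to 396 to 534 CPM in the eye cups and 42.9 to 50.2 CPM in the retinas. The part of these cell types in the levels of Fabp5 and Fabp4 was not tested.

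In the eye cup Fabp7 was also high with the transgene and dox, but mice differed. Its level was 45.0, 15.9 and 86.2 CPM in PRDM13-OE mice with dox, 3.92, 7.94 and 5.79 CPM in untreated PRDM13-OE mice, 1.67, 2.92 and 0.562 CPM in wildtype with dox, and 2.29, 1.11 and 1.21 CPM in untreated wildtype. The groups stood in steps, with every PRDM13-OE eye cup with dox above every untreated one, and every untreated one above the wildtype eye cups. Against wildtype with dox the log2-fold change was 4.95 (SE 0.80, 95% interval from 3.08 to 6.82, unadjusted p = 0.00036, edgeR adjusted p = 0.528). The PRDM13-OE eye cups with dox came from the same 3 mice as the induced retinas and held rod RNA. Tests that use these eye cups, here and below, are therefore not independent of the choice of genes. The call depended on the setting. Of the members, 0 of 5 members were called by edgeR, where it called 0.0184% of 21758 genes, and DESeq2 called 1, Fabp7 (log2-fold change 4.92, adjusted p = 2.95e-08), where it called 0.499% of 20055 genes. Over the fits that left out 1 library, the edgeR adjusted p ran from 0.0169 to 0.971, and Fabp7 was called without the third PRDM13-OE eye cup (4.26, adjusted p = 0.0169) and with the rod level as a covariate (5.96, adjusted p = 0.0197, chosen after seeing the data). Groups did not overlap for 1 of 5 members, and for 16.2% of all genes. Other lists were apart as well with the transgene and dox against wildtype with dox, the 12 lens genes at 14.7 to 389 against 655 to 3096 CPM, the 8 bipolar cell genes at 594 to 936 against 988 to 1237 CPM and the 5 horizontal cell genes at 47.0 to 128 against 130.1 to 192 CPM, and their part in the difference was not tested. The exact permutation test of 3 against 3 mice, two-sided, gave p = 0.1 for Fabp7, the smallest it allows.

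Against untreated PRDM13-OE eye cups, Fabp7 was 3.08 higher (SE 0.63, edgeR adjusted p = 0.975, DESeq2 adjusted p = 0.0016), with 0 of 5 members called by edgeR, 1 at an unadjusted p under 0.05 beside 4.14% of all genes, and 0.0139% of 21604 genes called by edgeR and 0.297% of 18199 by DESeq2. Fabp7 was the 1 member without overlap, beside 9.31% of all genes. Summed markers of other cell types were also apart in these eye cups, lower with dox for the astrocyte genes (749 to 1447 against 1559 to 2554 CPM), the Schwann cell genes (255 to 1160 against 1691 to 7400 CPM) and the RPE genes (8115 to 21947 against 23786 to 56643 CPM), and their part in the difference was not tested. The untreated PRDM13-OE eye cups stood 1.90 above untreated wildtype (SE 0.46, 95% interval from 0.81 to 3.00, unadjusted p = 0.00445, edgeR adjusted p = 1.00, DESeq2 adjusted p = 0.239). Here groups did not overlap for 1 of 5 members and for 5.93% of all genes, and edgeR called 0 of 5 members and 0% of 21588 genes. The 6 astrocyte genes also differed without overlap in these untreated eye cups, at 1559 to 2554 CPM in PRDM13-OE and 714 to 1527 CPM in wildtype, and their part in the level of Fabp7 was not tested. The 8 Schwann cell genes summed to 1691 to 7400 CPM and 531 to 3265 CPM, with overlap. Dox in wildtype eye cups gave 0.07 (SE 0.61, 95% interval from -1.35 to 1.49, edgeR adjusted p = 0.952), with 0 of 5 members called by edgeR and DESeq2, 0 at an unadjusted p under 0.05 beside 29.9% of all genes, and 0% of 21799 genes called by edgeR and 10.8% of 18409 by DESeq2. Only Fabp12 had groups without overlap there (log2-fold change 1.42, SE 0.72, edgeR adjusted p = 0.229), beside 37.5% of all genes, and the rod genes separated the same eye cups, at 27962 to 52119 CPM with dox and 3247 to 26967 CPM without. What share of the difference of Fabp12 went with rod RNA was not tested. The interaction of genotype and dox in the eye cup was 3.00 for Fabp7 (SE 0.89, unadjusted p = 0.0062, edgeR adjusted p = 0.753, DESeq2 adjusted p = 0.198), with 0% of genes called.

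Since every eye cup held rod RNA, each was set beside the retina of its own mouse. In PRDM13-OE mice with dox, the rod list in the eye cup was 26.6%, 11.2% and 68.5% of that in the retina. Fabp12 in the eye cup was 25.4%, 9.31% and 66.4% of its retinal level in those mice, and Fabp7 was 45.7%, 16.6% and 96.4%. The mouse with the most rod RNA in the eye cup thus had the most Fabp7 there, and the mouse with the least had the least. In untreated PRDM13-OE mice the rod shares were 19.5%, 36.0% and 11.1%, and Fabp7 was 522%, 628% and 832% of a retinal level that rested on 12 to 23 counts. In wildtype mice, Fabp7 in the eye cup was 385%, 480% and 40.3% of the retinal level with dox and 135%, 166% and 99.8% without, over 8 to 37 retinal counts, so that levels above the retinal one were found in 4 of 6 wildtype mice too. By CPM in the eye cup, the untreated PRDM13-OE mouse with the most rod RNA again had the most Fabp7, and the mouse with the least rod RNA did not have the least. Over the 12 mice, Fabp12 lay between 2.39% and 66.4% of its retinal level where the rod list lay between 4.50% and 73.0%. The part of retinal RNA in the Fabp7 of the eye cups was not tested beyond the covariate above.

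**Figure D4:**
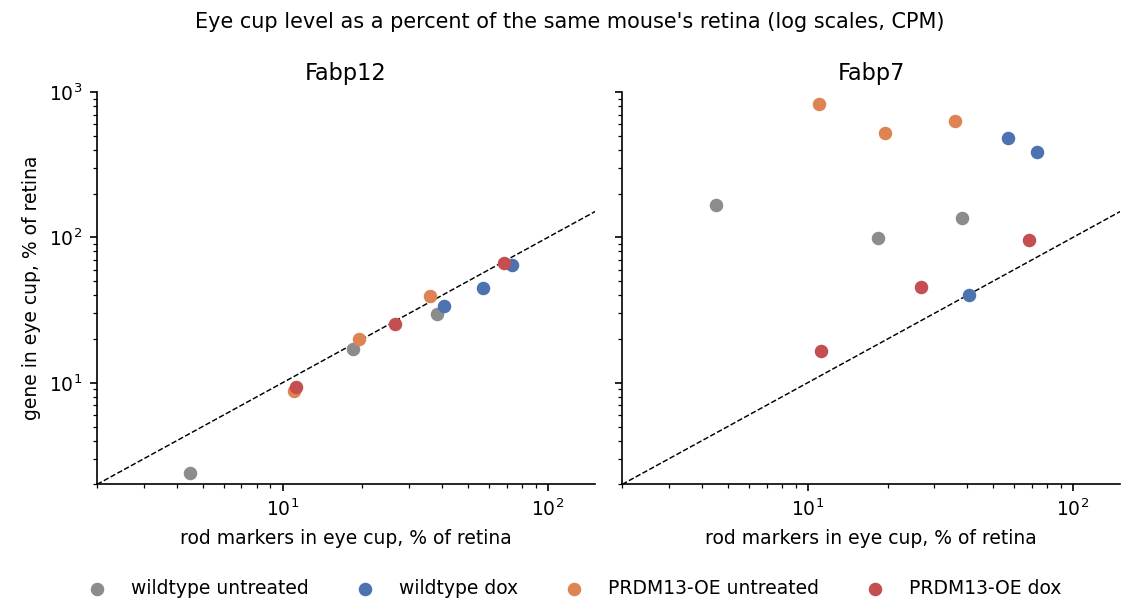
Level in the eye cup as a percent of the level in the same mouse's retina, for Fabp12 (left) and Fabp7 (right) against the 10 rod genes, on log scales. Points are the 12 mice and the dashed line marks equal percents. Fabp12 broadly rises with the rod percent and lies below the line except in untreated PRDM13-OE mice 1 and 2. Fabp7 lies at 16.6% to 96.4% in PRDM13-OE mice with dox, at 522% to 832% in untreated PRDM13-OE mice and at 40.3% to 480% in wildtype mice.

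The other members in the eye cup spread widely between mice. Fabp12 was 14.5, 5.09 and 43.8 CPM in PRDM13-OE with dox and 62.8, 42.9 and 31.8 CPM in wildtype with dox (log2-fold change -1.03, SE 0.69, edgeR adjusted p = 0.630, and -2.14 with adjusted p = 0.0372 without the third PRDM13-OE eye cup). Fabp5 ranged from 19.5 to 219 CPM over the 12 eye cups, and differed by -0.37 on the log2 scale (SE 0.31, edgeR adjusted p = 0.694) between genotypes with dox. Fabp3 ranged from 8.89 to 19.6 CPM and differed by -0.08 (95% interval from -0.79 to 0.63, edgeR adjusted p = 0.938). Fabp4 ranged from 2.77 to 18.9 CPM and differed by 0.52 (95% interval from -1.16 to 2.20, edgeR adjusted p = 0.804). By FPKM, untreated wildtype eye cups were led by Fabp5 at 35.5 ± 23.8 FPKM (SD, n = 3), then Fabp3 at 14.4 ± 4.59, Fabp12 at 5.94 ± 5.25, Fabp4 at 1.52 ± 0.568 and Fabp7 at 1.26 ± 0.517 FPKM, and libraries of each pair of neighbours in this order overlapped. In PRDM13-OE eye cups with dox the first was Fabp7 at 38.8 ± 26.8 FPKM (SD, n = 3), which overlapped Fabp3 at 16.5 ± 4.61 FPKM. The mean of Fabp7 came after that of Fabp5, with overlap, when canonical transcript lengths were used.

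Whether dox acted differently on the members in the 2 tissues of wildtype mice was tested by the interaction over 12 libraries, the 2 tissues of 6 mice, fitted without the mouse. It called 0 of 5 members, where 4.5% of 23814 genes were called, and DESeq2 called 0 too, where it called 11.8% of 18261 genes. Fabp5 had the largest value, 1.70 (SE 0.74, unadjusted p = 0.041, edgeR adjusted p = 0.153). Fabp12 stood at -1.50 (SE 0.78, edgeR adjusted p = 0.226) and was called without the eye cup of untreated wildtype mouse 1 (-2.37, adjusted p = 0.0233). With the mouse as a block, 0 of 5 were called, and Fabp5 stood at 1.31 (edgeR adjusted p = 0.172) and Fabp12 at -1.65 (edgeR adjusted p = 0.172).

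The wider family of intracellular lipid binding proteins, which also holds the retinol and retinoic acid carriers, was mostly silent in retina. Fabp1, Fabp2 and Pmp2 (peripheral myelin protein) had at most 2 counts in each library and Fabp9 at most 4. Fabp6, the ileal bile acid binding protein, had at most 1 count in retina and 2 to 148 counts in the eye cup. Crabp1, a retinoic acid carrier, had a median of 12.6 FPKM in the retinas and 4.86 FPKM in the eye cups. In the induced retinas against wildtype with dox, 3 relatives outside the 5 members were tested and 0 were called.

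Genes that handle fatty acids on either side of the binding proteins were compared in the induced retinas against wildtype with dox, where 2.41% of 20560 genes were called. Of 20 genes of fatty acid uptake and activation, 1 was called lower and 0 higher, with a median log2-fold change of -0.08 beside 0.01 for all genes. The 1 was Acsl1, which joins long-chain fatty acids to coenzyme A. From 84.9 ± 1.85 CPM (SD, n = 3) it came to 34.1 ± 2.50 CPM (SD, n = 3) and fell by 1.32 on the log2 scale (SE 0.06, edgeR adjusted p = 1.95e-07). Acsl1 was also called against untreated PRDM13-OE (-1.27), where 1.04% of 20603 genes were called, and in the interaction (-1.24), where 0.87% of 22538 genes were called. Of 17 genes of fatty acid oxidation, 0 were called, with a median of 0.15, and 3 had an adjusted p under 0.05, beside 12.5% of all genes. Hadha and Hadhb, the subunits of the mitochondrial trifunctional protein, were 0.73 (SE 0.07) and 0.68 (SE 0.06) higher, within the cutoff, and Acadl, a long-chain acyl-coenzyme A dehydrogenase, was -0.36 (SE 0.09). Of 16 genes of synthesis and desaturation, 14 of lipid droplets and lipolysis and 12 lipid-responsive nuclear receptors, 0 were called in each list, with medians of -0.12, 0.04 and -0.01. These counts lie near what the share over all genes gives for lists of this size.

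**Figure D5:**
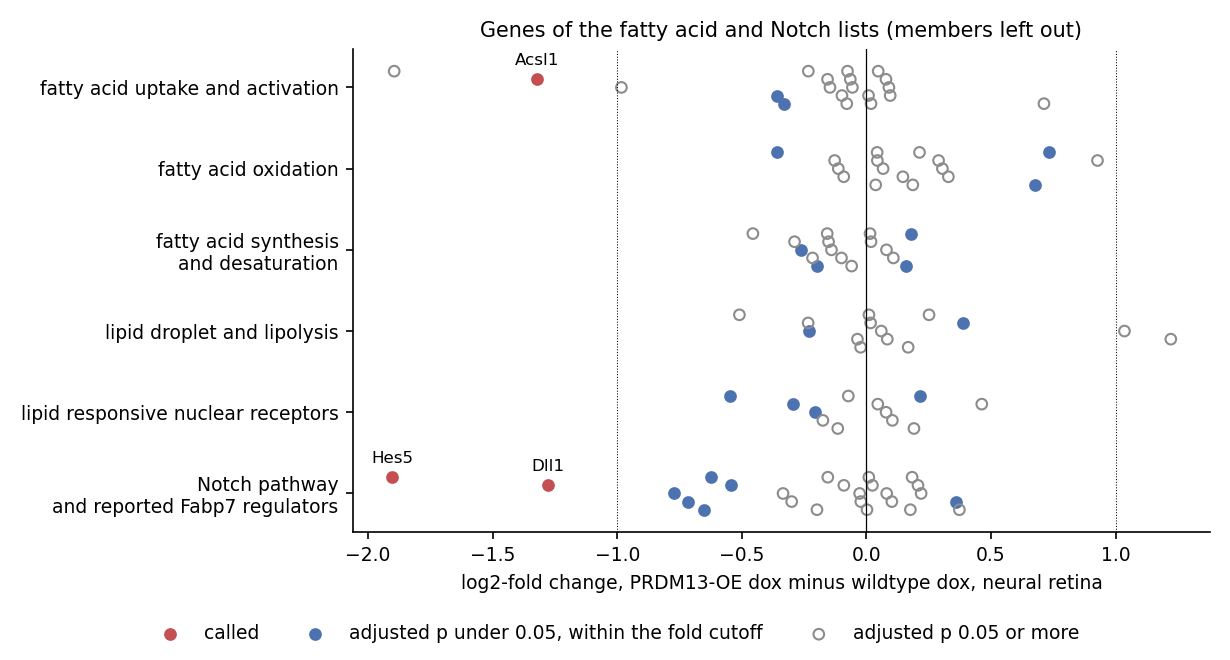
log2-fold changes of the genes of 6 lists in the neural retina, PRDM13-OE with dox minus wildtype with dox, members left out. Each point is a gene, red where called, blue where the adjusted p was under 0.05 within the fold cutoff (dotted lines at -1 and 1) and open otherwise. Acsl1, Dll1 and Hes5 are the called genes, all lower.

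Fabp7 is known as a target of Notch signalling in radial glia, where RBPJ binds its promoter, and Pax6, Pou3f2 and nuclear factor I proteins have been tied to its transcription. Of 25 genes of the Notch pathway and these regulators, 2 were called lower and 0 higher in the induced retinas against wildtype with dox, beside 1.5% of all genes called lower, with a median of -0.03. The 2 were the ligand Dll1, which fell from 18.03 ± 0.700 to 7.43 ± 2.00 CPM (SD, n = 3; log2-fold change -1.28, SE 0.16, edgeR adjusted p = 0.000311), and the Notch target Hes5, which fell from 8.55 ± 1.14 to 2.28 ± 0.771 CPM (SD, n = 3; -1.90, SE 0.22, edgeR adjusted p = 0.000169). Both were also called against untreated PRDM13-OE, at -1.07 and -1.28. An adjusted p under 0.05 was met by 8 of the 25, beside 12.5% of all genes, with 11 of the 25 above and 14 below 0. Of these 8, the receptors Notch1 (-0.54), Notch2 (-0.62) and Notch3 (-0.65), the ligand Jag1 (-0.77) and the target Hes1 (-0.72) were lower within the cutoff, while Sox2, kept on in Müller glia, was 0.36 higher. The list was written with earlier results of these data known.

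Because Fabp7 marks glia and their progenitors, the glial lists were set beside it, where 2.41% of all genes were called. The 12 Müller glia genes summed to 8312 to 8633 CPM in the induced retinas and to 9043 to 9216 CPM in wildtype retinas with dox, and 0 were called. The 6 astrocyte genes summed to 290 to 322 CPM and 242 to 279 CPM, with 1 called lower (Gja1), so that their sum was higher and this gene lower. The 10 radial glia and progenitor genes summed to 837 to 887 CPM and 995 to 1089 CPM, with 2 of 9 tested called lower (Ccnd1 and Hes5). In each of these 3 lists the summed levels of these groups did not overlap, nor did the levels of 31.8% of all genes. The untreated retinas overlapped the induced ones in the Müller glia genes (8040 to 9158 CPM in PRDM13-OE and 7768 to 8576 CPM in wildtype), while they stayed below them in the astrocyte genes (194 to 255 and 209 to 225 CPM) and above them in the radial glia and progenitor genes (929 to 966 and 888 to 987 CPM). The part of these lists in the level of Fabp7 was not tested.

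The genes beside each member on its chromosome, within 200000 bases of its start, were looked at for shared changes. Fabp7 has 4 such genes, of which Pkib and Smpdl3a had enough counts, and they differed by -0.22 (SE 0.28) and 0.18 (SE 0.14) in the induced retinas against wildtype with dox, neither called. Smpdl3a starts 9454 bases from the start of Fabp7. On chromosome 3, 0 of the 8 tested neighbours of Fabp12, 0 of 7 of Fabp4 and 0 of 1 of Fabp5 other than members were called, and some of these are counted for more than 1 member. Among the 8 tested neighbours of Fabp3, 1 was called, Tinagl1, which was lower (-1.34, SE 0.32, edgeR adjusted p = 0.016).

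The genes most like each member were found by Pearson's r of log2(CPM + 1) over the 12 retinas for Fabp7, Fabp12 and Fabp3 and over the 12 eye cups for Fabp4 and Fabp5, as a description over libraries that share their groups. For Fabp7 in retina, over 16936 genes, they were AY702102 (r = 0.989, at most 1.00 CPM), Tmem26 (0.987, from 2.38 to 45.5 CPM), Slc29a4 (0.984, from 25.1 to 161 CPM), Zdhhc2 (0.983) and 4833439L19Rik (0.983). For Fabp12 in retina they were Nrl (0.983, from 1578 to 2472 CPM), the rod transcription factor, with Eepd1, Sel1l3, Ppp1cc and Fscn2 (0.980 to 0.976). For Fabp3 in retina they were Mapt (0.969), Dclk1, Ube2w, Pcsk1 and Chrnb3 (0.953). In the eye cup, over 18136 genes, Fabp4 was followed by Gm42791 (0.925), Alox5ap, Cfd, Retnla and Spryd4 (0.831), and Fabp5 by Fcmr (0.888), Clca3b, Stfa3, Cox15 and Gm44274 (0.875). With a pseudocount of 0.1, 4 of the 5 genes remained for Fabp7, 4 for Fabp3, 4 for Fabp4, 3 for Fabp5 and 5 for Fabp12. The lists changed more with ranks in place of values, where 1 of the 5 genes remained for Fabp7, 3 for Fabp3, 3 for Fabp4, 0 for Fabp5 and 0 for Fabp12.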

How the data were processed

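Poly-A RNA of 12 neural retinas and 12 eye cups was sequenced for the authors by Novogene. The submitters' processing notes name CASAVA, HISAT2 and GRCm39, and the counting tool and annotation release are not given in the sources used here. The authors deposited read counts per gene, not normalized, and FPKM, which equals counts over gene length and library total times a constant between 0.863 and 1.26 in each library. Their deposited fold changes and p-values were not used.

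Counts were tested with edgeR 4.0.16 (R 4.3.3, TMM factors, quasi-likelihood test, Benjamini-Hochberg adjustment over all genes) on the libraries of the groups compared, for genes with at least 10 counts summed over them. DESeq2 1.42.0 and other settings were alternatives. The interactions used 12 libraries. Levels are CPM scaled by TMM factors over all 24 libraries, and per-length levels are the deposited FPKM. The mouse number pairs retina and eye cup of 1 mouse by the labels, and deviations of such pairs correlated at 0.0866 to 0.114 across genes in untreated wildtype mice. No library was a copy of another. Scripts were tested on simulated data. Tables were handled with python 3.11.15, pandas 2.3.3 and scipy 1.17.1.

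The members, gene lists, named genes (members, family, neighbours within 200000 bases, called list genes, 5 most correlated genes) and motifs were chosen with earlier results of these data known. Depth was 15825059 to 24908314 counts per library, so precision is limited by 3 mice per group except for Fabp7 and Fabp4 at low counts. Human PRDM13 was not analysed here, and 1 relative of the members is not reported here. p-values measure the spread between mice.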

Additional observations from a re-analysis of the deposited data

How the results depend on the processing

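In the comparisons with the induced retinas, no count of called members is given, since these retinas chose the genes. The log2-fold change of Fabp7 ran from 6.57 to 7.48 against wildtype with dox, from 6.52 to 7.01 against untreated PRDM13-OE and from 6.94 to 7.89 in the interaction when a library was left out, and it was 6.43 against wildtype with dox with the lens covariate. The lens covariate, whose values did not overlap between those groups, turned Fabp5 from -1.39 to 0.65 there, and the cause was not tested. In the eye cup with dox, 1 member in place of 0 was called with DESeq2, 1 with the rod covariate, and 0 to 2 when a library was left out. Between untreated wildtype retina and eye cup, 2 to 3 were called when a library was left out. Against untreated PRDM13-OE eye cups DESeq2 called 1 in place of 0. In the wildtype interaction of tissue and dox, 0 to 1 were called when a library was left out. The other 181 values of these counts and of Fabp7 in the induced retinas stayed within 1.5 times of the main count or within 1 SD between libraries.

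With the replicate number as a block, 3 members were still called between untreated wildtype retina and eye cup, and 0 in the wildtype interaction of tissue and dox, where the number is the mouse. In the 8 other comparisons of 2 groups the number names different mice, correlations of same-numbered deviations ran from -0.509 to 0.612, and every library was closest to its own number in 1 of the 8. The block changed the count of called members in 0 of the 6 of them without the induced retinas, and gave Fabp7 a log2-fold change of 6.86 in the induced retinas against wildtype with dox. Low counts limit Fabp7 outside the induced groups and Fabp4 in retina.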
